A study of Homo sapiens with 9 samples.

Results

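The oxysterol-binding protein family was measured by microarray in PC9 cells, a lung adenocarcinoma line, after small interfering RNA (siRNA) knockdown of ALKBH5, the demethylase that removes N6-methyladenosine from mRNA. The 10 members examined were OSBP, OSBP2, OSBPL3, OSBPL5, OSBPL6, OSBPL7, OSBPL8, OSBPL9, OSBPL10 and OSBPL11, taken by gene symbol from 21448 transcript clusters that carried 17687 named genes. Each had 1 cluster, and the remaining genes of the family on the array, OSBPL1A and OSBPL2, are given beside them. The family was selected on these arrays because OSBP2 was higher with both siRNAs, so the change in OSBP2 is described without a test.

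Proteins of this family (ORPs) share a lipid-binding domain that holds sterols, phosphatidylserine or the phosphoinositide PI4P, and they move lipids across contact sites between the endoplasmic reticulum (ER) and other membranes. A typical member carries its cargo one way and PI4P the other, and the ER phosphatase SAC1 then breaks the PI4P down. Many members reach the ER by binding the anchor proteins VAPA and VAPB, whereas OSBPL5 and OSBPL8 are themselves embedded in it.

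PC9 cells were transfected with a control siRNA (siControl) or with 1 of 2 siRNAs against ALKBH5 (siALKBH5#1 and siALKBH5#3) at 15 nM, and total RNA was taken at 96 h. Each group had 3 arrays labelled as biological replicates, all of the same cell line with no drug treatment named in the labels. The knockdown is transient and 1 cell line was used, and the siRNA sequences were not analysed here. Values are intensities on a linear scale (a probe set's brightness after the normalization by the authors), and fold changes are ratios of geometric means.

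The targeted gene was checked first. ALKBH5 read 2828 ± 474 (SD, n = 3) in siControl, 107 ± 9.01 with siALKBH5#1 and 40.5 ± 14.3 with siALKBH5#3. Both siRNA groups were thus well below siControl, and the lower level was with siALKBH5#3. Both were also below the 95th percentile of the negative control probe sets on all 3 arrays. The order of the 2 siRNAs therefore rests on signal not above background. The 9 arrays had median intensities of 102.67 to 105.175 and correlated with r of 0.994 to 0.997 within groups and 0.988 to 0.993 between groups, over clusters, which are not independent replicates. All 8 epithelial markers were bright, with summed intensities of 459350 to 471975 in siControl, 420590 to 425494 with siALKBH5#1 and 454412 to 463483 with siALKBH5#3. CDH1 (E-cadherin) and KRT7 fell with siALKBH5#1, by 0.76 and 0.40 on the log2 scale (limma adjusted p = 0.0233 and 0.0480), calls that were lost for KRT7 without any one array (0.0756 to 0.146) and for CDH1 without replicate 2 or 3 of siALKBH5#1 and without replicate 1 or 2 of siControl (0.0713 to 0.0918). The 5 immune markers measured were below the 95th percentile of the 612 negative control probe sets on every array (summed intensity 155.8 to 172 in siControl, 121 to 157 with siALKBH5#1 and 122 to 144 with siALKBH5#3). Of the 9 fibroblast and endothelial markers, 7 in siControl, 9 with siALKBH5#1 and 8 with siALKBH5#3 were below that percentile on every array, with sums of 629 to 743, 472 to 539 and 579.74 to 622. PECAM1 fell with both siRNAs (160.3 to 87.4 and 87.7), and 2 dim markers fell with siALKBH5#1, CDH5 (66.6 to 33.6) and CD14 (34.9 to 23.3). The CD14 call (adjusted p = 0.0328) was lost when siALKBH5#1 replicate 2 or 3 was left out, and likewise for siControl replicate 1 or 2 (0.0614 to 0.117). Their part in the results was not tested. In bulk RNA of 1 cell line, fewer cells expressing a gene and less of its RNA per cell cannot be told apart.

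Brightness differed widely among the members. OSBP, OSBPL3, OSBPL8, OSBPL9, OSBPL10 and OSBPL11 were brighter than at least 98.5% of the negative control probe sets on every array. OSBPL5, OSBPL6 and OSBPL7 were below the 95th percentile of the negative controls on every array. OSBP2 lay near that percentile in siControl, where it was brighter than 93.0% to 95.1% of the negative controls, and above it with siALKBH5#1 (97.9% to 98.4%) and siALKBH5#3 (97.7% to 97.9%).

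Among the 9 members other than OSBP2, OSBPL8 fell with siALKBH5#1 and the other 8 did not pass the test (limma, Benjamini-Hochberg adjusted p under 0.05 over all clusters). That is 1 of 9, where 8.07% of all clusters were called. With siALKBH5#3, OSBPL8 fell and OSBPL6 rose, 2 of 9 against 15.8% of all clusters. The siRNA groups did not overlap siControl for 2 of 9 members with siALKBH5#1 (26.9% of all clusters) and for 4 of 9 with siALKBH5#3 (32.7% of all clusters). At an unadjusted p under 0.05 the counts were 3 of 9 with each siRNA, beside 23.2% and 29.4% of all clusters. The median log2 fold change of the 9 members was 0.13 with siALKBH5#1 and -0.07 with siALKBH5#3, beside -0.01 and -0.02 over all clusters. These shares are of few genes and lie near the background.

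**Figure D1:**
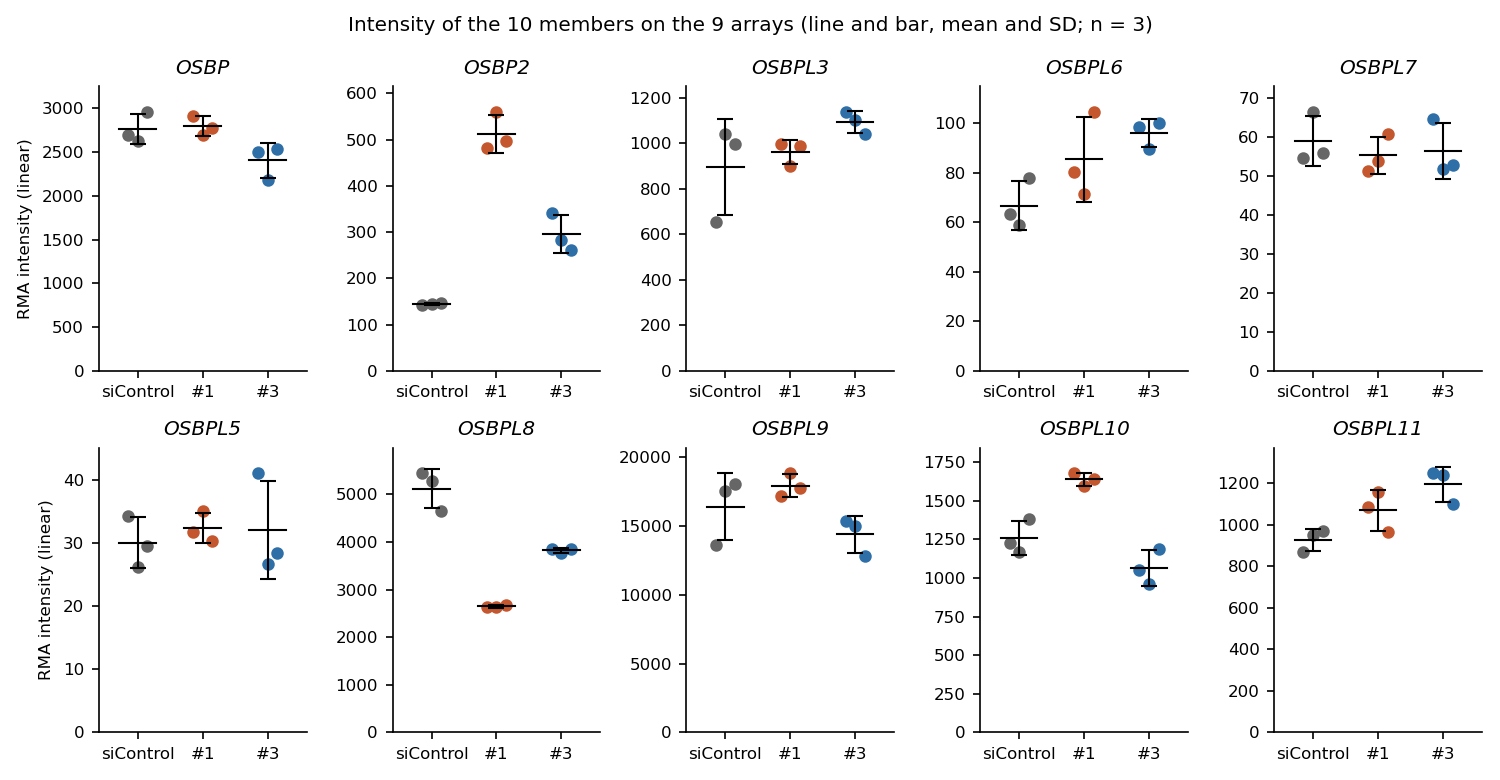
Intensity (linear scale from 0, a separate axis for each gene) of the 10 members on the 9 arrays, with 3 points per group and a line and bar for the mean and SD. OSBP2 was at 142 to 148 in siControl and above 261 on every siALKBH5 array, and OSBPL8 was highest in siControl and lowest with siALKBH5#1.

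OSBP2 encodes ORP4, the closest relative of OSBP, which binds sterols and oxysterols. The gene lies on chromosome 22 (GRCh38.p14, chr22:30693782-30907813), where RefSeq gives several transcription starts. Its upstream sequences are shown because OSBP2 is the gene on which the family was chosen. The array gives 1 cluster for the gene, so its starts cannot be told apart. Which of its transcripts the probes detect was not examined. The windows end 1 base before each start and come from RefSeq, which gave windows for all 10 members, with both OSBP2 windows inside the annotated gene. Capitals mark matches, on either strand, to CACGTG (E-box), TGACTCA (AP-1 site), GGGCGG (GC box), CCAAT or TATAAA.
OSBP2 upstream of the first start listed, chr22:30764003-30764252, + strand: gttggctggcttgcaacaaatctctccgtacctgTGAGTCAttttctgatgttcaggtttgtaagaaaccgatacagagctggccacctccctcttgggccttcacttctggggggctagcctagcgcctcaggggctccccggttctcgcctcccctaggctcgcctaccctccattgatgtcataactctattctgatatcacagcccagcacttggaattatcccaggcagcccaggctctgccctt
OSBP2 upstream of the next start listed, chr22:30822266-30822515, + strand: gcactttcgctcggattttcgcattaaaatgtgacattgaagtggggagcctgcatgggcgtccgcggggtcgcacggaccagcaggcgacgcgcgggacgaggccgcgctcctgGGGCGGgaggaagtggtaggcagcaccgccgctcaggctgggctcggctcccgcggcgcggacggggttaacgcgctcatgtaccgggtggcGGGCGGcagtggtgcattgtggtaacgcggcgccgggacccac

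The first OSBP2 window held 1 AP-1 match, 216 bases before the start, and a GC content of 55.2%. The other held 2 GC boxes, 135 and 43 bases before the start, with 33 CG dinucleotides and a GC content of 69.2%. Of 34788 windows of 250 bases across the RefSeq table, 4.21% held the AP-1 letters and 42.6% a GC box, and the median window had 11 CG dinucleotides and 58% GC. A match is a run of letters and says nothing of binding.

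OSBP2 read 142, 144 and 148 on the siControl arrays. With siALKBH5#1 it read 483, 559.94 and 496, and with siALKBH5#3 it read 342, 284 and 261. Every siALKBH5#1 array was above every siALKBH5#3 array, and all 6 were above siControl. The means were 144 ± 2.99 (SD, n = 3), 513 ± 41.2 and 296 ± 41.8, and the measured ratios to siControl were 3.54 and 2.03, or 1.83 and 1.02 on the log2 scale. The absolute log2 change of OSBP2 exceeded that of 99.8% of all clusters with siALKBH5#1 and 97.9% with siALKBH5#3. OSBP2 was chosen for its rise, so this rank is a description. The level with siALKBH5#3 was 0.574 of that with siALKBH5#1. On 2 of the 3 siControl arrays OSBP2 was below the 95th percentile of the negative controls, so the ratios rest on a control level near background. ALKBH5 was likewise lower with siALKBH5#3 than with siALKBH5#1 (40.5 against 107), both levels being below that percentile on all 3 arrays.

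OSBP, the founding member, exchanges cholesterol for PI4P between the ER and the Golgi (chr11:59574398-59615774). It read 2695, 2633 and 2959 in siControl, 2915, 2693 and 2778 with siALKBH5#1, and 2503, 2179.5 and 2531 with siALKBH5#3. Its siALKBH5#1 values lay within the siControl range, and its siALKBH5#3 values lay below every other array. The log2 fold changes were 0.02 ± 0.11 (SE) with siALKBH5#1 and -0.20 ± 0.11 with siALKBH5#3 (limma adjusted p = 0.945 and 0.274). The fold change had a 95% interval of 0.851 to 1.20 with siALKBH5#1 and 0.731 to 1.03 with siALKBH5#3.

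OSBPL8 (ORP8) carries phosphatidylserine from the ER to the plasma membrane in exchange for PI4P (chr12:76351797-76559771). The sequence before its outermost start is shown because OSBPL8 was the member that passed the test with both siRNAs, and capitals have the same meaning as above.
OSBPL8 upstream of the outermost start, chr12:76559772-76560021, - strand: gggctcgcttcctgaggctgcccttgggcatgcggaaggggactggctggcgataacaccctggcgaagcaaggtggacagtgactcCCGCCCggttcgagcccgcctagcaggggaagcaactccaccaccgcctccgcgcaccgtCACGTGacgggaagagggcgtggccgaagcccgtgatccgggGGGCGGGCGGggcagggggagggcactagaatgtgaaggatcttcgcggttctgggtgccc

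That window held 1 E-box, 103 bases before the start, and 3 GC boxes, a pair of which overlapped each other, with a GC content of 68.8%. The E-box letters were in 6.31% of all windows and in 2 of the 19 windows of the family, the other being one of OSBPL1A, a gene with no call. A second OSBPL8 window held an AP-1 match 36 bases before its start. The AP-1 letters were in 4.21% of all windows and in 3 of the 19 windows of the family. Besides OSBPL8, these were windows of OSBP2 and of OSBPL10, a gene with no call against siControl.

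OSBPL8 read 5439.9, 5272 and 4653 in siControl. It read 2634, 2628 and 2686 with siALKBH5#1, and 3854, 3771 and 3861 with siALKBH5#3. The 3 groups did not overlap, and the siALKBH5#3 arrays lay between the others. OSBPL8 fell to 0.518 of siControl with siALKBH5#1 (95% interval 0.439 to 0.612, log2 fold change -0.95 ± 0.11, adjusted p = 0.000282). It fell to 0.749 with siALKBH5#3 (0.635 to 0.884, -0.42 ± 0.11, adjusted p = 0.0226), and in the direct comparison it was 1.44-fold higher with siALKBH5#3 than with siALKBH5#1 (1.22 to 1.70, adjusted p = 0.00448). The call with siALKBH5#1 held in all 12 alternatives tried. The call with siALKBH5#3 held with siControl replicate 3 left out (adjusted p = 0.0164) and was lost when any of the other 5 arrays of that comparison was left out (0.0558 to 0.0753).

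OSBPL5 (ORP5), which works with OSBPL8 at the plasma membrane, was dim, with intensities of 26.3 to 34.4 in siControl, 30.4 to 35.2 with siALKBH5#1 and 26.8 to 41.1 with siALKBH5#3. The groups overlapped, and it was brighter than 67.2% to 76.0% of the negative controls. Its log2 fold changes of 0.11 ± 0.17 and 0.07 ± 0.17 did not pass the test (adjusted p = 0.739 and 0.818). A change in OSBPL5 was not detectable at this signal, and no order against OSBPL8 can be read from it.

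OSBPL10 (ORP10) binds phosphatidylserine and PI4P and acts at contacts of the ER with the Golgi and endosomes (chr3:31660825-32077692). It read 1226, 1169 and 1385 in siControl, 1677, 1597 and 1643 with siALKBH5#1, and 1049.9, 958 and 1190.03 with siALKBH5#3. The siALKBH5#1 arrays were above all others, and the siALKBH5#3 arrays overlapped siControl at their upper end. Neither siRNA passed the test against siControl. The gene stood at 1.30-fold (95% interval 1.08 to 1.57) with siALKBH5#1 and at 0.845-fold (0.702 to 1.02) with siALKBH5#3, for adjusted p of 0.0790 and 0.212. Between the siRNAs the gene differed, at 0.648 of the siALKBH5#1 level with siALKBH5#3 (0.538 to 0.780, log2 difference -0.63 ± 0.12, adjusted p = 0.00332), and this call held in all 12 alternatives. The point estimates against siControl thus had opposite signs for the 2 siRNAs.

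OSBPL11 (ORP11), the near relative of OSBPL10, pairs with OSBPL9 at the Golgi (chr3:125528858-125595497). It read 869, 950.1 and 968 in siControl, 1087, 1159.97 and 964 with siALKBH5#1, and 1248, 1241 and 1099 with siALKBH5#3. All siALKBH5#3 arrays were above siControl, while siALKBH5#1 replicate 3 fell within the siControl range. The fold changes of 1.15 (95% interval 0.959 to 1.38) and 1.29 (1.07 to 1.54) did not pass the test (adjusted p = 0.347 and 0.0611).

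OSBPL9 (ORP9) tethers the ER to the Golgi and was bright on every array (chr1:51518272-51789219). It read 13572, 17519 and 18013 in siControl, 17184, 18804 and 17767 with siALKBH5#1, and 15319, 14978 and 12820.1 with siALKBH5#3. Replicate 1 of siControl was low, so siControl overlapped both siRNA groups, and the siRNA groups did not overlap each other. The log2 fold changes were 0.14 ± 0.14 and -0.18 ± 0.14 against siControl (adjusted p = 0.590 and 0.424), and -0.32 ± 0.14 between the siRNAs (adjusted p = 0.134).

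Of the subfamily of OSBPL3, OSBPL6 and OSBPL7, OSBPL3 (ORP3, which binds the small GTPase R-Ras) was the bright one. It read 656, 1041 and 995 in siControl, 997, 899 and 989 with siALKBH5#1, and 1137, 1103 and 1038 with siALKBH5#3. Replicate 1 of siControl stood low, and the other siControl arrays overlapped both siRNA groups. The log2 fold changes were 0.13 ± 0.16 and 0.31 ± 0.16 (adjusted p = 0.696 and 0.230). Without siControl replicate 1 they were -0.08 and 0.10 (adjusted p = 0.749987 and 0.658).

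OSBPL6 (ORP6) read 63.2, 59.1 and 77.8 in siControl, 80.5, 71.3 and 105 with siALKBH5#1, and 98.3, 89.7 and 99.9 with siALKBH5#3. The siALKBH5#3 arrays were all above siControl, and siALKBH5#1 overlapped both. It rose with siALKBH5#3, 1.45-fold (95% interval 1.14 to 1.84, adjusted p = 0.0390), while the 1.27-fold difference with siALKBH5#1 did not pass (1.00 to 1.62, adjusted p = 0.209). This call too held with siControl replicate 3 left out (adjusted p = 0.0220) and was lost when any of the other 5 arrays was left out (0.0697 to 0.121). The gene was brighter than only 85.1% to 91.5% of the negative controls.

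OSBPL7 (ORP7) was also dim, at 54.5 to 66.3 in siControl, 51.3 to 60.6 with siALKBH5#1 and 51.6 to 64.4 with siALKBH5#3. Its groups overlapped, with log2 fold changes of -0.09 ± 0.14 and -0.07 ± 0.14 (adjusted p = 0.740 and 0.792). The direct comparison of the siRNAs gave 0.02 ± 0.14 (adjusted p = 0.943).

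**Figure D2:**
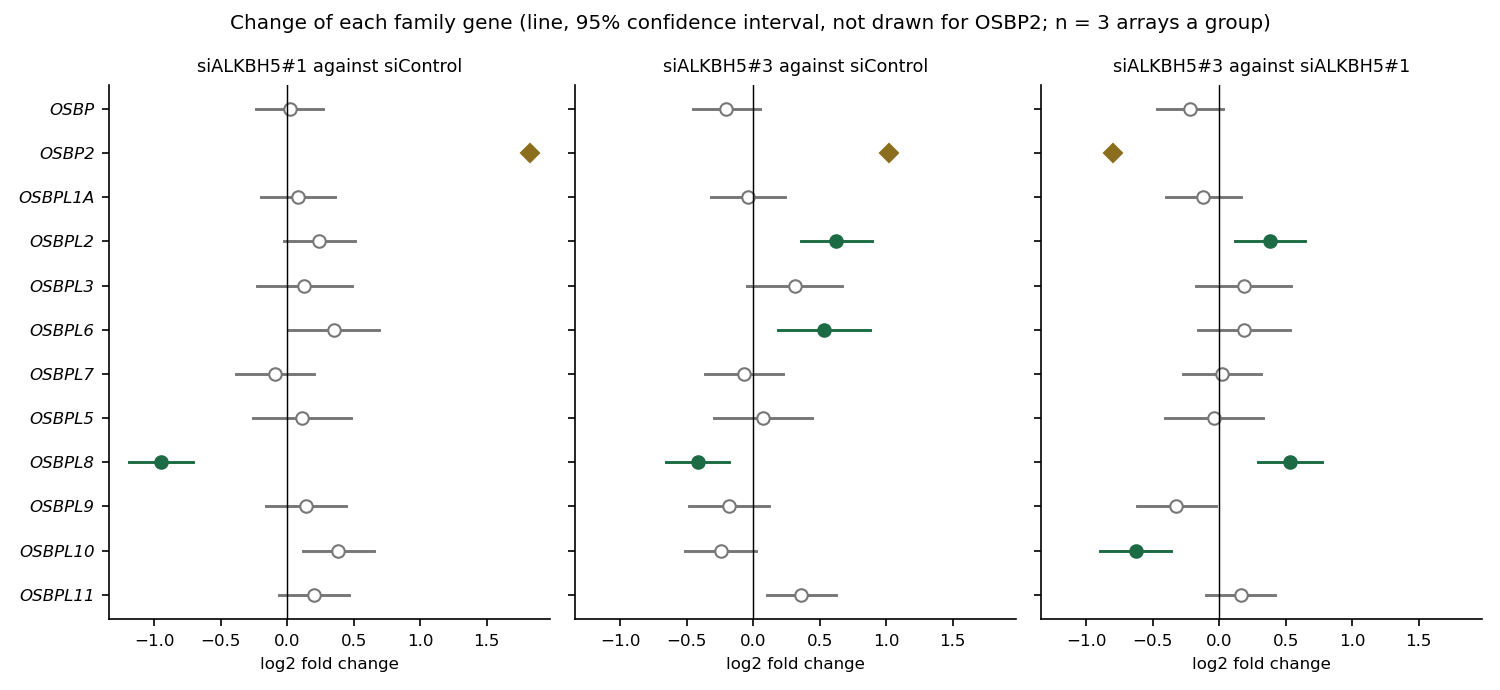
Log2 fold change of the 12 family genes in the 3 comparisons, with 95% confidence intervals as lines. Filled circles passed the test, open circles did not, and the diamond without an interval is OSBP2, which was not tested. OSBPL8 lay below 0 with both siRNAs and OSBPL10 was lower with siALKBH5#3 than with siALKBH5#1.

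The remaining family genes form a subfamily of their own. OSBPL2 (ORP2), which moves cholesterol to the plasma membrane, read 3935, 4483 and 3673 in siControl, 4858, 4736 and 4665 with siALKBH5#1, and 5566, 6449.6 and 6629 with siALKBH5#3. All 3 groups were apart, in the order siControl, siALKBH5#1, siALKBH5#3. OSBPL2 rose 1.54-fold with siALKBH5#3 (95% interval 1.28 to 1.86, adjusted p = 0.00456), and the 1.18-fold difference with siALKBH5#1 did not pass (0.984 to 1.42, adjusted p = 0.261). The call with siALKBH5#3 was lost in the methods' t-test once its p-values were Benjamini-Hochberg adjusted (adjusted p = 0.0665, unadjusted 0.00556). The methods themselves name no such adjustment. OSBPL1A (ORP1, which positions late endosomes) did not pass in either comparison, with log2 fold changes of 0.08 ± 0.13 and -0.04 ± 0.13 (adjusted p = 0.764 and 0.880).

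The siRNAs were also compared with each other. The siControl means do not enter this difference, but the estimate of spread came from all 9 arrays, siControl included. With the 2 siRNA groups fitted alone, the calls of OSBPL8 and OSBPL10 held. Of the 9 members other than OSBP2, OSBPL8 was higher and OSBPL10 lower with siALKBH5#3, 2 of 9 where 19.1% of all clusters were called. OSBPL2, outside the list, was 1.30-fold higher with siALKBH5#3 (adjusted p = 0.0466), a call that was lost without siALKBH5#1 replicate 1, 2 or 3 or siALKBH5#3 replicate 2 or 3 (0.0922 to 0.154). For OSBP, OSBPL3, OSBPL5, OSBPL6, OSBPL7, OSBPL9 and OSBPL11 the direct comparison did not pass (adjusted p 0.134 to 0.943).

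The genes whose profile over the 9 arrays was most like that of OSBP2 were found by the root mean square difference of log2 intensity, each gene centred on its siControl mean. They were HMGA2 (0.161), a chromatin protein, P2RX5 (0.259), an ATP-gated channel, SLCO4A1 (0.269), an organic anion transporter, MARCHF4 (0.279), a ubiquitin ligase, and CCNE1 (0.284), cyclin E1. HMGA2 read 89.0, 99.2 and 94.8 in siControl, 349, 334 and 269 with siALKBH5#1, and 208, 196.5 and 211 with siALKBH5#3. As for OSBP2, its highest arrays were those of siALKBH5#1 and no groups overlapped. Because OSBP2 was chosen for its change, this order of likeness is a description. HMGA2 and SLCO4A1 were below the 95th percentile of the negative controls on all 3 siControl arrays, so their differences from siControl, and their rank, rest on a level not above background. SLCO4A1 was below it on all 3 siALKBH5#3 arrays as well, so its siALKBH5#3 level was not above background either.

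**Figure D3:**
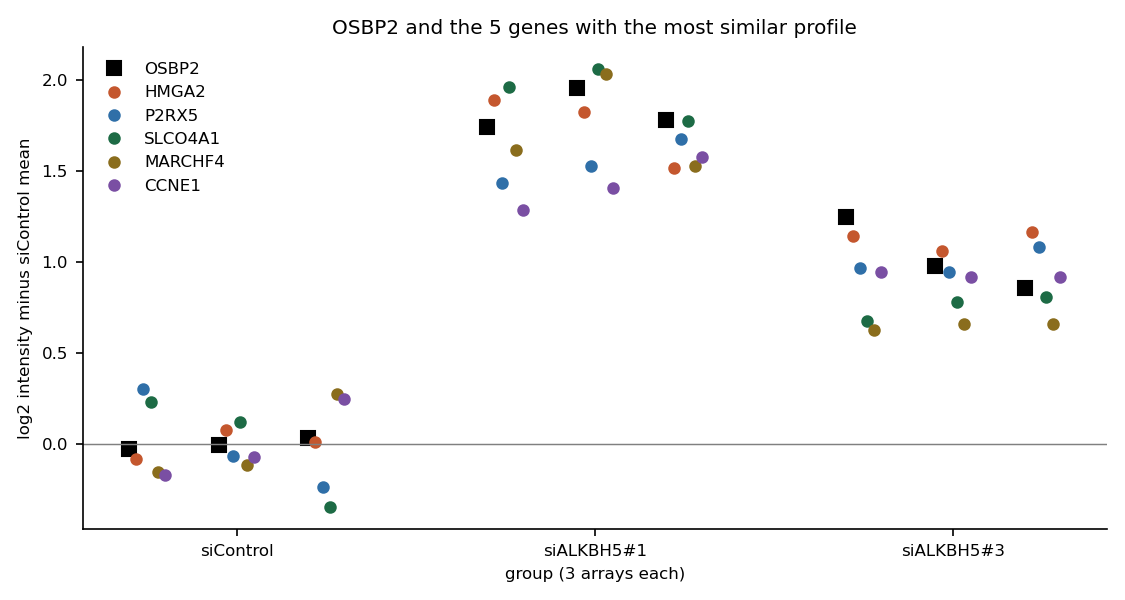
Log2 intensity minus the siControl mean on each of the 9 arrays for OSBP2 (squares) and the 5 genes nearest to it in profile (circles), with replicates 1 to 3 in order within each group. All 6 genes were highest with siALKBH5#1 and intermediate with siALKBH5#3, where SLCO4A1 was still below the 95th percentile of the negative controls.

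The partners of the family were read from lists of genes around it. Of 10 measured genes for ER anchors and PI4P supply, PI4KA, the PI4-kinase that makes PI4P at the plasma membrane, passed as higher with both siRNAs and PI4K2A, a Golgi and endosomal PI4-kinase, fell with siALKBH5#3. That is 1 of 10 and 2 of 10, where 8.07% and 15.8% of all clusters were called. PI4KA read 253 ± 23.5 (SD, n = 3) in siControl and changed by 0.48 ± 0.13 and 0.58 ± 0.13 on the log2 scale (adjusted p = 0.0388 and 0.00888). Its call with siALKBH5#1 was lost when any array of the comparison other than siControl replicate 3 was left out (0.0926 to 0.113). PI4K2A fell by 1.16 ± 0.13 with siALKBH5#3 (1860.02 to 841, adjusted p = 0.000139). The anchors VAPA and VAPB and the phosphatase gene SACM1L did not pass in either comparison (adjusted p 0.203 to 0.981). The list's median log2 fold change was 0.12 and 0.06, beside -0.01 and -0.02 over all clusters.

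Among 19 measured lipid transfer and tether genes outside the family, 2 rose and 4 fell with each siRNA (8.07% and 15.8% of all clusters were called). VPS13C, a bridge-like lipid transporter, fell with both, by 0.82 ± 0.11 and 0.96 ± 0.11 on the log2 scale (adjusted p = 0.000715 and 0.000137). STARD3NL, which links the ER to late endosomes, fell by 1.05 ± 0.13 with siALKBH5#1 (adjusted p = 0.000401), as did PLEKHA3 (FAPP1, a PI4P-binding protein of the Golgi) by 0.85 ± 0.13 and the ER tether GRAMD2A by 0.84 ± 0.14 (adjusted p = 0.00228 and 0.00297). NPC1, the lysosomal cholesterol exporter, rose by 0.80 ± 0.11 with siALKBH5#1 (adjusted p = 0.000881). With siALKBH5#3 the sterol carrier STARD4 fell by 1.24 ± 0.23, GRAMD1C by 1.07 ± 0.15 and VPS13A by 1.01 ± 0.17 (adjusted p = 0.00302, 0.000592 and 0.00187). The direct comparison of the siRNAs passed for STARD3NL, PLEKHA3, GRAMD2A, NPC1, STARD4, GRAMD1C and VPS13A (adjusted p 7.34e-05 to 0.0125), the call of GRAMD2A being lost without siALKBH5#1 replicate 3 or siALKBH5#3 replicate 1 (0.0550 and 0.0505). The list's median was -0.11 with siALKBH5#1 and -0.17 with siALKBH5#3.

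The remaining calls of that list were less firm. GRAMD1B, which carries cholesterol from the plasma membrane, was higher by 0.57 ± 0.16 and 0.56 ± 0.16 (adjusted p = 0.0476 and 0.0337). Its call with siALKBH5#1 was lost when any array other than siControl replicate 3 was left out (0.0634 to 0.149648). That with siALKBH5#3 was lost when replicate 1 or 2 of either group was left out (0.0776 to 0.126). PITPNM1, a phosphatidylinositol transfer protein, was higher by 0.56 ± 0.17 with siALKBH5#3 (adjusted p = 0.0478), which was lost without any array of the comparison other than siALKBH5#3 replicate 1 (0.0526 to 0.181). Its direct comparison of the siRNAs (adjusted p = 0.0450) was lost without siALKBH5#1 replicate 1 or 2 or siALKBH5#3 replicate 2 or 3 (0.0848 to 0.182).

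Oxysterols are also ligands of the nuclear receptor LXR, and sterol levels in the ER set the activity of SREBP. Of 12 measured genes for oxysterol synthesis and LXR, 4 fell with siALKBH5#3 (15.8% of all clusters were called) and 1 rose with siALKBH5#1 (8.07%). The cholesterol exporter ABCA1 fell by 1.23 ± 0.12 on the log2 scale (adjusted p = 6.03e-05), the phospholipid acyltransferase LPCAT3 by 1.10 ± 0.14 (0.000410), SREBF1 by 0.77 ± 0.18 (0.0112) and NR1H3, which encodes LXR alpha, by 0.62 ± 0.16 (0.0211). The NR1H3 call was lost when replicate 1 or 3 of either group was left out (0.0523 to 0.0825), and that of SREBF1 without siALKBH5#3 replicate 2 (0.0508). The direct comparison of the siRNAs passed for ABCA1, LPCAT3 and NR1H3 (adjusted p = 0.000202, 0.000289888 and 0.0365), although that of NR1H3 was lost without siALKBH5#3 replicate 1, 2 or 3 or siALKBH5#1 replicate 2 or 3 (0.0526 to 0.138). With siALKBH5#1, CYP39A1, an oxysterol hydroxylase, was the only gene called among these 12 (0.74 ± 0.19, adjusted p = 0.0365). It had a mean intensity of 40.7 in siControl and was below the 95th percentile of the negative controls on every array. The CYP39A1 call was lost without any array of the comparison other than siControl replicate 1 (0.0630 to 0.117). MYLIP also belongs to this list but was not analysed here, and the paper reports it as lower with both siRNAs. The list's median was -0.11 and -0.24.

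Of 6 measured SREBP pathway genes, INSIG1, the ER protein that retains SREBP, and SQLE, an enzyme of cholesterol synthesis, fell with siALKBH5#3, 2 of 6 where 15.8% of all clusters were called. INSIG1 fell by 2.16 ± 0.13 on the log2 scale (1897 to 424, adjusted p = 4.07e-06) and SQLE by 1.16 ± 0.13 (3936 to 1768, adjusted p = 0.000109). With siALKBH5#1 limma called 0 genes of this list, with 0 at an unadjusted p under 0.05 and 0 by the methods' t-test after adjustment. The direct comparison of the siRNAs passed for both genes (adjusted p = 1.33e-06 and 2.09e-05). The phosphatidylserine synthases PTDSS1 and PTDSS2, which make the cargo of OSBPL8, did not pass in either comparison (adjusted p 0.166 to 0.781). The median log2 fold change was 0.07 and -0.44 over the SREBP pathway genes and 0.24 and 0.13 over the synthases. Other genes of these lists were not analysed here.

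**Figure D4:**
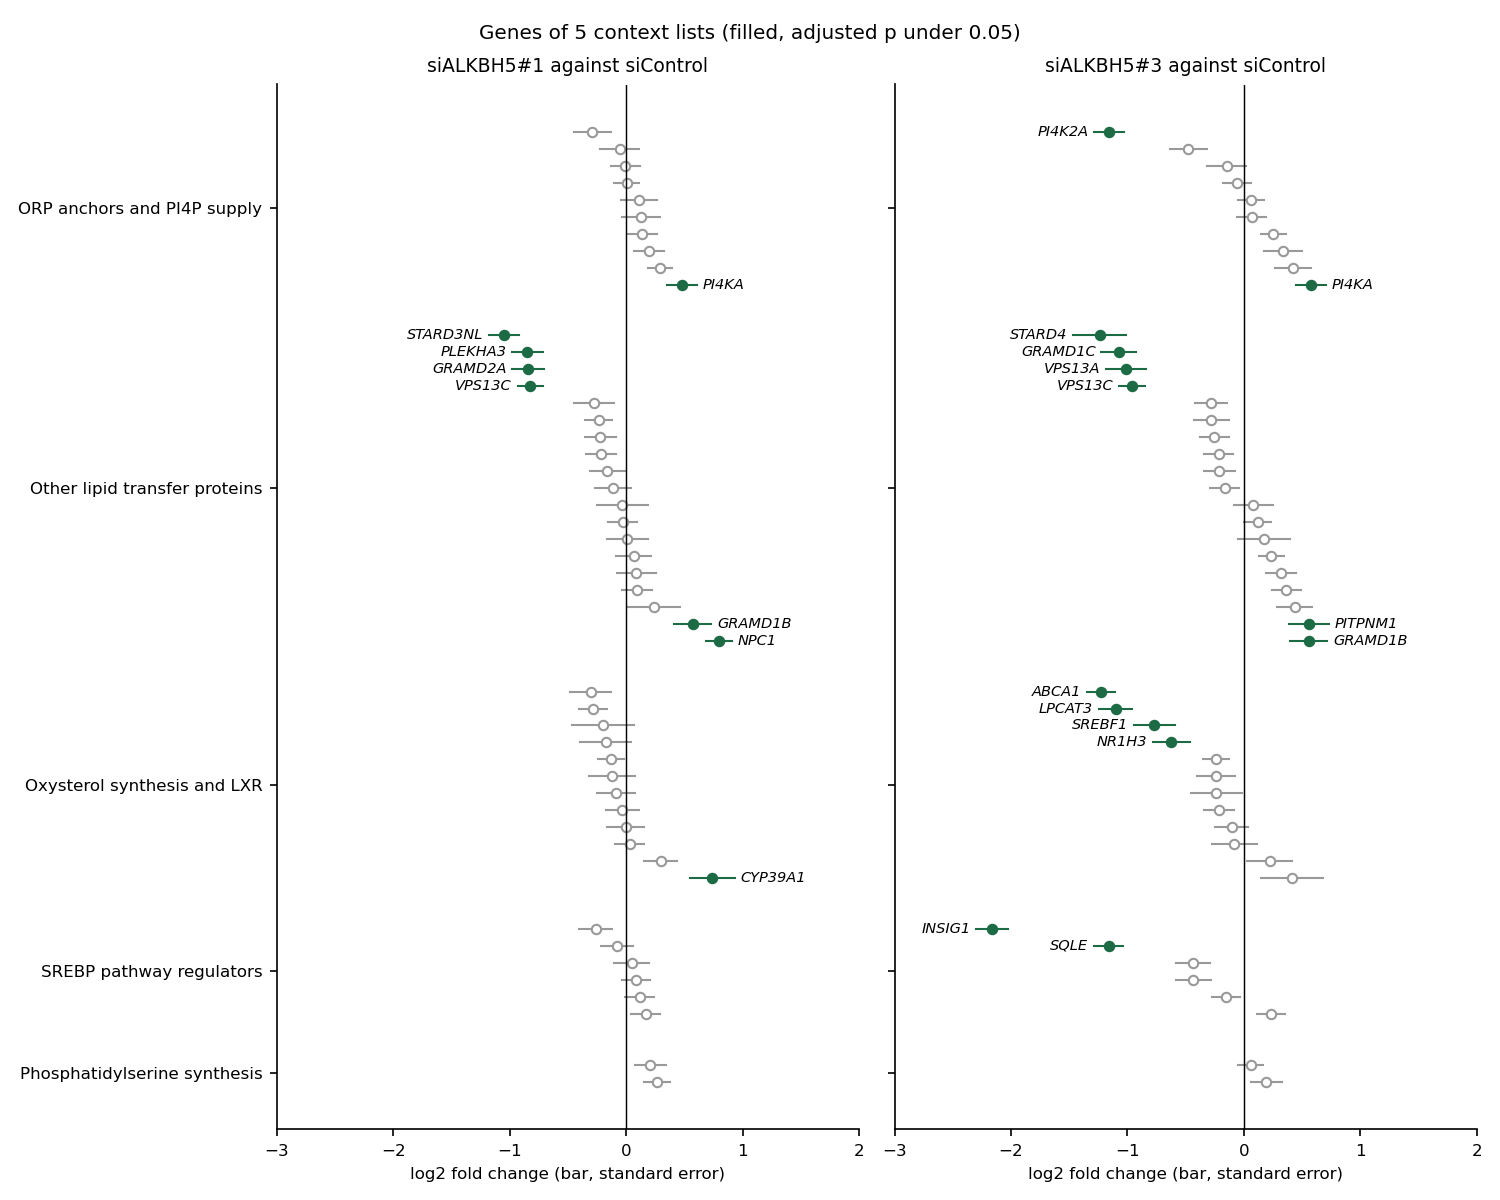
Log2 fold change with its standard error for each measured gene of the 5 lists, in order of size within a list, for siALKBH5#1 (left) and siALKBH5#3 (right) against siControl. Named filled points passed the test, and the LXR and SREBP genes among them that fell, INSIG1 lowest, did so with siALKBH5#3.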

How the data were processed

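Total RNA (250 ng) from 9 PC9 samples was hybridised to Clariom S arrays. The deposited table gives an intensity per probe set on a linear scale, normalized by the authors, whose processing notes name RMA, the Affymetrix Expression Console and hg38 and whose methods name a Microarray Data Analysis Tool. RMA shrinks dim signals towards background, which lowers the fold changes of dim genes. Of 24351 rows, 2903 control probe sets were left out and 21448 clusters were kept, 17709 with 1 symbol from the platform annotation, all found in RefSeq. Values were taken as log2 with no pseudocount. limma 3.58.1 (R 4.3.3) fitted a mean for each of the 3 groups on all 9 arrays, with 6 residual and 5.79 prior degrees of freedom, and p-values were two-sided and Benjamini-Hochberg adjusted over all clusters (threshold 0.05). The script was tested on simulated data.

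Groups came from the sample labels. The members and lists were chosen with earlier results of these data known, and the named genes are the members, ALKBH5, the list genes that passed or, failing that, the brightest, and the 5 genes nearest to OSBP2. Alternatives were the replicate block, an intensity trend with a robust prior, quantile normalization, leaving out clusters under the 25th percentile of mean intensity, and the 2 groups compared alone. Others were the methods' t-test, a further 1.5-fold limit, and leaving out each array. The t-test was Benjamini-Hochberg adjusted here, whereas the methods name a p-value and fold limit without that adjustment. Calls lost in it are thus not calls lost by the methods' own limits. The number of arrays limits the precision. The labels call the replicates biological, and whether these were separate cultures on separate days was not given, so the p-values speak for the spread among these 9 arrays alone.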

Additional observations from a re-analysis of the deposited data

Results flagged for a closer look

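For 3 of 11 family genes other than OSBP2, the effects of the 2 siRNAs differed by limma's test of the difference. Over all clusters 19.1% were called in this comparison. OSBPL8 was 0.53 higher on the log2 scale with siALKBH5#3 than with siALKBH5#1 (adjusted p = 0.00448), all 3 siALKBH5#3 arrays being above all 3 siALKBH5#1 arrays and all 6 below siControl. OSBPL10 was lower by -0.63 with siALKBH5#3 (adjusted p = 0.00332), with no overlap between the siRNAs. OSBPL2 was 0.38 higher with siALKBH5#3 (adjusted p = 0.0466), again with no overlap, but this call was lost without any array other than siALKBH5#3 replicate 1 (0.0922 to 0.154). ALKBH5 read lower with siALKBH5#3 (40.5 against 107), with both groups below the 95th percentile of the negative controls on all 3 arrays. A part of the remaining ALKBH5 level in these differences was not tested.

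Genes around the family differed between the siRNAs as well, each by the same test (adjusted p 1.33e-06 to 0.0477), where 19.1% of all clusters were called. Values are log2 differences of siALKBH5#3 from siALKBH5#1. Of the SREBP pathway list, INSIG1 (-2.08), SQLE (-1.33) and INSIG2 (-0.48) were lower with siALKBH5#3. Of the oxysterol and LXR list, LPCAT3 (-1.07), ABCA1 (-0.94), NR1H3 (-0.53) and CYP39A1 (-0.82) were lower. The INSIG2 call was lost without any array of the comparison other than siALKBH5#3 replicate 2 (adjusted p 0.0705 to 0.136), that of NR1H3 without any other than siALKBH5#1 replicate 1 (to 0.138), that of PITPNM1 without siALKBH5#1 replicate 1 or 2 or siALKBH5#3 replicate 2 or 3 (to 0.182), and that of GRAMD2A without siALKBH5#1 replicate 3 or siALKBH5#3 replicate 1 (0.0550 and 0.0505). Of the PI4-kinases, PI4K2A was lower (-1.35). Among lipid transfer genes STARD4 (-1.48), GRAMD1C (-0.91), VPS13A (-0.73) and NPC1 (-0.56) were lower, and PLEKHA3 (1.17), STARD3NL (0.83), GRAMD2A (0.56) and PITPNM1 (0.55) were higher. The dim markers CD14 (0.48) and CDH5 (1.04) were higher with siALKBH5#3, the call of CD14 being lost without replicate 2 or 3 of either group (0.119629 to 0.145). The epithelial markers CDH1 (1.16) and KRT7 (0.35) were higher with siALKBH5#3, the call of KRT7 being lost without any one array (0.0560 to 0.181). With the 2 siRNA groups fitted alone, the limma calls of PITPNM1 (adjusted p = 0.0555) and KRT7 (0.0597) were lost.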

How the results depend on the processing

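OSBP2 was chosen for its rise, so its range over the 12 alternatives per comparison is a description. Its log2 fold change was 1.76 to 1.87 with siALKBH5#1 and 0.91 to 1.11 with siALKBH5#3. Settings that alter only the estimate of spread or the clusters tested leave this value unchanged. The count of called members with siALKBH5#1 rose from 1 to 2 with the intensity trend and robust prior, which added OSBPL10 (adjusted p = 0.0400), and was 1 without any one array. With siALKBH5#3 the count of 2 became 1 in the fit of the 2 groups alone (OSBPL8 0.0505), 0 with the methods' t-test (OSBPL8 0.0560, OSBPL6 0.108), 0 with the 1.5-fold limit, and 0 to 2 without one array. Between the siRNAs the count of 2 became 1 with the 1.5-fold limit and was 2 without any one array. OSBPL11 with siALKBH5#3 passed with the trend and robust prior (0.0392) and with dim clusters left out (0.0411), as did OSBPL9 between the siRNAs with the trend and robust prior (0.0209).

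Over all clusters, the 1731 calls with siALKBH5#1 became 2604 with the trend and robust prior, 324 with the methods' t-test and 1037 to 1723 without one array. The 3381 calls with siALKBH5#3 became 1302 with the t-test, 2099 with the 1.5-fold limit and 2320 to 3235 without one array. The 4097 calls between the siRNAs became 2672 and 2687 with those settings and 3110 to 3381 without one array. Leaving out an array leaves fewer samples, and the cause of the other changes was not tested.

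Of the list genes, the methods' t-test with Benjamini-Hochberg adjustment ended the calls of PI4KA and GRAMD1B with both siRNAs. It ended those of PLEKHA3, GRAMD2A and CYP39A1 with siALKBH5#1. With siALKBH5#3 it ended those of STARD4, GRAMD1C, PITPNM1, VPS13A, NR1H3, SREBF1 and LPCAT3 (adjusted p 0.0524 to 0.239513 over all these calls). It also ended those of the markers CDH1, KRT7, CD14 and CDH5 with siALKBH5#1 and PECAM1 with both (0.0511 to 0.210), and between the siRNAs those of OSBPL2, GRAMD2A, PITPNM1, VPS13A, CYP39A1, NR1H3, INSIG2, KRT7, CD14 and CDH5 (0.0553 to 0.216). The OSBPL2 call with siALKBH5#3 was lost too (0.0665).

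Small differences changed sign. OSBP with siALKBH5#1 became -0.0295 with quantile normalization and ranged from -0.0154 to 0.0690 without one array. Without one array OSBPL3 with siALKBH5#1 ranged from -0.0838 to 0.25 and OSBPL1A from -0.0371 to 0.17, OSBPL5 and OSBPL7 with siALKBH5#3 from -0.12 to 0.19 and -0.17 to 0.0206, and the same genes between the siRNAs from -0.23 to 0.0778 and -0.0794 to 0.0917.

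Samples with the same replicate number did not deviate together more than others (r -0.15 to 0.12 over 9 pairs, against -0.18 to 0.17 over 18 pairs of different numbers). Deviations from means of 3 arrays cannot exclude that samples of the same number shared a culture or day. With the replicate block the counts of called members stayed at 1, 2 and 2 and those over all clusters were 1430, 2994 and 3774. Among family genes the block changed the call of OSBPL2 between the siRNAs (adjusted p = 0.0722), and among list genes those of PI4KA (0.0740), GRAMD1B (0.0841), KRT7 (0.0891) and CD14 (0.0543) with siALKBH5#1, of GRAMD1B (0.0613) and PITPNM1 (0.0562) with siALKBH5#3, and of NR1H3, INSIG2, PITPNM1, KRT7 and CD14 between the siRNAs (0.0520 to 0.0863). Low signal limits OSBPL5, OSBPL6 and OSBPL7, whose levels lay within the range of the negative controls.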
